A study of Mus musculus with 24 samples.

Results

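The 65 genes described here encode core proteins of the spliceosome and the splicing factors that guide it, and their transcript levels were compared between Ts65Dn and wild-type (wt) mice and between the hippocampus (HIP) and the entorhinal cortex (EC). They are the protein-coding genes of the mouse GRCm38 annotation whose symbol begins with Srsf, Hnrnp, Sf3a, Sf3b, Snrp or Prpf and whose raw count averaged 10 or more over the 24 libraries. The rule selected 65 of the 55385 genes in the count table. Every protein-coding gene with these prefixes passed the count limit, and the 5 other genes with such names were pseudogenes or other non-coding entries. The lowest mean was that of Snrpf, at 72.5 raw counts, so no gene lay near the limit. The set held 11 SR protein genes, 20 hnRNP genes, 12 genes of Sm and other snRNP proteins (Snrp), 9 genes of the SF3A and SF3B complexes and 13 PRPF genes. None of the 65 lies in the chromosome segments that Ts65Dn mice carry in an additional copy.

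Introns are removed by the spliceosome, which is built anew on each intron from small nuclear ribonucleoproteins (snRNPs). The Sm proteins form a ring around the small nuclear RNAs, and SF3A and SF3B belong to the U2 snRNP that recognises the branch point. The PRPF proteins act mostly at the 5′ splice site, in the U4/U6.U5 tri-snRNP and in the activation of the complex. SR proteins bind exons and as a rule promote the use of nearby splice sites, whereas hnRNPs bind nascent transcripts broadly and often repress them. In neurons many exons are regulated by the balance of these families, and several SR and hnRNP genes control their own transcripts through exons that lead to decay. Gene counts add such non-productive transcripts to the productive ones.

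The mice were 12 males of 5 to 6 months, 6 Ts65Dn and 6 wt littermates, and each mouse gave 1 HIP and 1 EC sample, so that 4 groups of 6 libraries were available. Ts65Dn mice, a model of Down syndrome, were kept on an F1 B6C3B background and carry a minichromosome with mouse chromosome 16 from Mrpl39 to Zbtb21 and, in addition, with the Scaf8 to Pde10a part of chromosome 17, which has no counterpart on human chromosome 21. Wt mice have the standard chromosome set and otherwise the same crossed background. Bulk RNA of a whole dissected region was sequenced, so fewer cells of a type and less RNA per cell cannot be told apart.

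The libraries held between 23128589 and 40476492 counted reads. Levels are given in CPM, that is counts scaled to the library size after normalisation by the trimmed mean of M-values, and differences as log2 fold changes from edgeR's quasi-likelihood test with Benjamini-Hochberg adjustment over all genes tested. The summed markers of the dentate gyrus and CA fields (6 of 6 genes found) ranged from 780 to 1096 CPM in the 12 HIP libraries and from 248 to 373 CPM in the 12 EC libraries. Markers of the neocortical layers went the other way, with 141 to 242 CPM in the HIP and 534 to 766 CPM in the EC. Both libraries of the mouse labelled Ts65Dn replicate 3 went against their label. Their chromosome 16 genes stood at 1.02 times the wt mean in the HIP and 1.01 times in the EC (medians over 79 and 77 genes), whereas the other 5 Ts65Dn mice ranged from 1.44 to 1.53. The chromosome 17 genes of that mouse stood at 0.980 and 1.01 times the wt mean. The main results that include this mouse are therefore also given without it.

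Among the 65 genes the level per kilobase of exon differed widely. Snrpn, which encodes the neuronal SmN protein and is imprinted, had the highest level, at 310 CPM per kilobase, and Snrpc, a U1 snRNP protein, the lowest, at 0.917 CPM per kilobase. Within the SR proteins Srsf5 was highest, with 22.03 CPM per kilobase, and Srsf4 lowest, with 3.35. Among the hnRNPs, Hnrnpa2b1 reached 67.7 CPM per kilobase and Hnrnpf 1.63. Sf3b2 and Sf3b4 spanned the SF3 genes, with levels of 35.1 and 5.54 CPM per kilobase. The PRPF genes ran from Prpf39, a U1-associated factor, at 1.57 to Prpf8, the central protein of the catalytic core, at 40.2 CPM per kilobase. The 20 hnRNP genes took 47.1% of all reads of the 65 genes and the 11 SR genes 10.1%. Snrpn shares 589 exonic bases on its own strand with the overlapping gene Gm38393 and 216 with Snurf, so its level is uncertain. Hnrnpm shares 1169 bases with March2 on the same strand. In all, 6 of the 65 genes share exonic bases with another gene of the same strand and 22 with one of the opposite strand, and the strand setting of the counting is not given in the sources used here. Reads of Hnrnpa1, Hnrnpa3, Hnrnph1 and other genes with close paralogs or processed pseudogenes may also be divided between copies.

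The promoters of some of the genes that differed are shown before the comparisons. Their part in these differences was not tested. RefSeq windows for GRCm38.p6 were found for 57 of the 65 genes, and the 250 bases before the start were searched on both strands for 4 motifs. These were the GC box GGGCGG, the ETS core CCGGAAG, the CCAAT box CCAAT and the E-box CACGTG. The bases are printed 5′ to 3′ on the strand of the gene with these motifs in capitals. They end before the first transcribed base of the gene annotation, which shortened the windows of Prpf39 to 249 and of Prpf40b to 96 bases. Srsf5 and Srsf6 were the SR genes, and Prpf39 the PRPF gene, with the largest excess in the HIP. Sf3b3 is shown as an SF3B gene that was lower there, and Prpf40b as the gene that was higher in Ts65Dn mice in both regions.
Srsf5 (chr12:80945249-80945498, plus strand): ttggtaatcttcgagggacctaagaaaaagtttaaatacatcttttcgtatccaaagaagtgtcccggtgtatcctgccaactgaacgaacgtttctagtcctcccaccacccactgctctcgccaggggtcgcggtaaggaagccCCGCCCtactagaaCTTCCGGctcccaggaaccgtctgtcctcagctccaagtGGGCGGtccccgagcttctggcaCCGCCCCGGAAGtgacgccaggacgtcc
Srsf6 (chr2:162931258-162931507, plus strand): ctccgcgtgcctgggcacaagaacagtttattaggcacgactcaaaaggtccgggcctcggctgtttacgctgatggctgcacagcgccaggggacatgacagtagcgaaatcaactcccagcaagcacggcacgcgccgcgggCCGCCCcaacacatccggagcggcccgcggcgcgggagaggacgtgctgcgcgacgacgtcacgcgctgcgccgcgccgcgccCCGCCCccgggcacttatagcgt
Prpf39 (chr12:65036084-65036332, plus strand): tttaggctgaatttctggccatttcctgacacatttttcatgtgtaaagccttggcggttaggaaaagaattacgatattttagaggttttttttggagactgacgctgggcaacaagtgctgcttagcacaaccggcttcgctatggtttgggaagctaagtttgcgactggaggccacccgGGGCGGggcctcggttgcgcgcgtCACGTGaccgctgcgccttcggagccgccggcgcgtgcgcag
Sf3b3 (chr8:110846804-110847053, minus strand): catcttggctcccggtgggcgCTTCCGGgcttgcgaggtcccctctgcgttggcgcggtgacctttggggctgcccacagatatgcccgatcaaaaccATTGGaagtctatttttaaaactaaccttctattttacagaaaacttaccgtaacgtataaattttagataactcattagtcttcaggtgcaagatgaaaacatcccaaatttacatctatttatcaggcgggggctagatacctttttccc
Prpf40b (chr15:99294991-99295086, plus strand): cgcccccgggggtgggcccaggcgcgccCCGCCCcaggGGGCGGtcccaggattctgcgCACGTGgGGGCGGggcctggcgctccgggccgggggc

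Srsf5 held 3 GC boxes and 2 ETS matches, of which 1 pair shares a base. The GC box occurred in 10 of 11 SR, 14 of 18 hnRNP and 5 of 10 Snrp promoters. It was in 4 of 7 SF3 and 6 of 11 PRPF promoters, beside 35.4% of all 27025 genes with a window. The ETS core was found in 6 of 7 SF3, 4 of 11 SR and 3 of 10 Snrp promoters. It was in 3 of 11 PRPF and 2 of 18 hnRNP promoters, beside 7.83% of all genes. CCAAT was present in 13 of 18 hnRNP, 6 of 11 PRPF and 4 of 10 Snrp promoters. It was in 3 of 11 SR and 2 of 7 SF3 promoters, with 37.5% over all genes. The E-box was held by 0 of 11 SR, 0 of 7 SF3 and 1 of 10 Snrp promoters. It was in 3 of 18 hnRNP and 3 of 11 PRPF promoters, beside 6.86% of all genes, so its absence from the SR promoters is near that share. GC content of these 250 bases had a median of 68% in the SR genes, 63.8% in the hnRNP genes and 60.4% in the SF3 genes. It was 57.2% in the PRPF genes, 54.8% in the Snrp genes and 52.4% over all genes. A match describes letters in a window and shows no binding.

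Between HIP and EC the families went apart. In wt mice 39 of the 65 genes (60%) passed an adjusted p of 0.05, beside 61.3% of the 17196 genes tested, so their number was like that of all genes. Their direction was less even: 30 were higher in the HIP and 9 lower, whereas of all genes 31% were called higher and 30.3% lower. The SR genes accounted for 10 of the 30, the hnRNPs for 11, the PRPF genes for 7, and Sf3b1 and Snrpa1 for 1 each. With trends in GC content and length removed from the counts before the fit, the split was 20 higher and 20 lower, and over all genes 25.8% were then called higher and 36.1% lower, with a median that moved to -0.058. Of the 9 that were lower as fitted, 4 were SF3 genes, 3 were Snrp genes and 2 were PRPF genes. The median log2 fold change of HIP over EC was 0.44 for the SR genes, 0.15 for the hnRNPs, 0.13 for the PRPF genes, -0.095 for the Snrp genes and -0.13 for the SF3 genes. Over all genes tested the median was 0.0016.

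All 11 SR genes had a positive estimate and 10 of them were called (10 and 8 with GC content and length removed). Srsf5, an SR gene that responds to growth stimuli (chromosome 12, 80945504 to 80950507, plus strand), had 57.3, 63.9 and 72.4 CPM as lowest, median and highest level in the EC of wt mice, and 97.4, 113 and 130 CPM in the HIP. The ranges did not overlap, and each of the 6 mice had the higher level in the HIP. The log2 fold change was 0.82 (SE 0.057, adjusted p = 8.6e-07). In Ts65Dn mice the levels were 56.2 to 78.02 CPM in the EC and 95.2 to 124 CPM in the HIP, again without overlap, with a log2 fold change of 0.78 (SE 0.094, adjusted p = 6.86e-05). Without Ts65Dn replicate 3 it was 0.71 (adjusted p = 0.000176).

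Srsf6 (chromosome 2, 162931528 to 162937121, plus strand), whose protein binds exonic enhancers, ranged in wt mice from 43.6 through a median of 53.6 to 65.5 CPM in the EC and from 74.3 through 85.99 to 91.3 CPM in the HIP. These ranges were separate as well, and the log2 fold change was 0.62 (SE 0.062, adjusted p = 1.04e-05). Srsf11, which acts at the 3′ splice site and at neuronal microexons, showed 48.4, 60.6 and 63.3 CPM in the EC and 77.5, 79.9 and 88.4 CPM in the HIP, with a log2 fold change of 0.49 (SE 0.048, adjusted p = 8.63e-06). Srsf10, an SR protein that represses splicing when dephosphorylated, differed by 0.47 (SE 0.069, adjusted p = 0.000176). Its highest EC level (31.5 CPM) lay above its lowest HIP level (31.1 CPM), but within each mouse the HIP was higher.

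Srsf1 and Srsf2, the classical factors SF2/ASF and SC35, had log2 fold changes of 0.45 (SE 0.043, adjusted p = 8.65e-06) and 0.44 (SE 0.046, adjusted p = 1.65e-05). Levels of Srsf1 were 94.98, 110 and 124 CPM in the EC and 142, 148 and 168 CPM in the HIP, and those of Srsf2 were 29.6, 33.9 and 43.5 CPM and 44.2, 46.95 and 51.9 CPM. Neither gene had overlapping ranges. Srsf9, Srsf7, Srsf4 and Srsf3 were also called, with log2 fold changes of 0.39, 0.29, 0.18 and 0.16. Srsf12, a small SR protein, was the exception, with 0.046 (SE 0.057, adjusted p = 0.508). Averaged over the 11 genes, the HIP level exceeded the EC level by between 0.25 and 0.51 on the log2 scale in the 6 wt mice, and by between 0.16 and 0.67 in the 6 Ts65Dn mice, of which Ts65Dn replicate 3 was the highest and 0.47 the next.

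**Figure D1:**
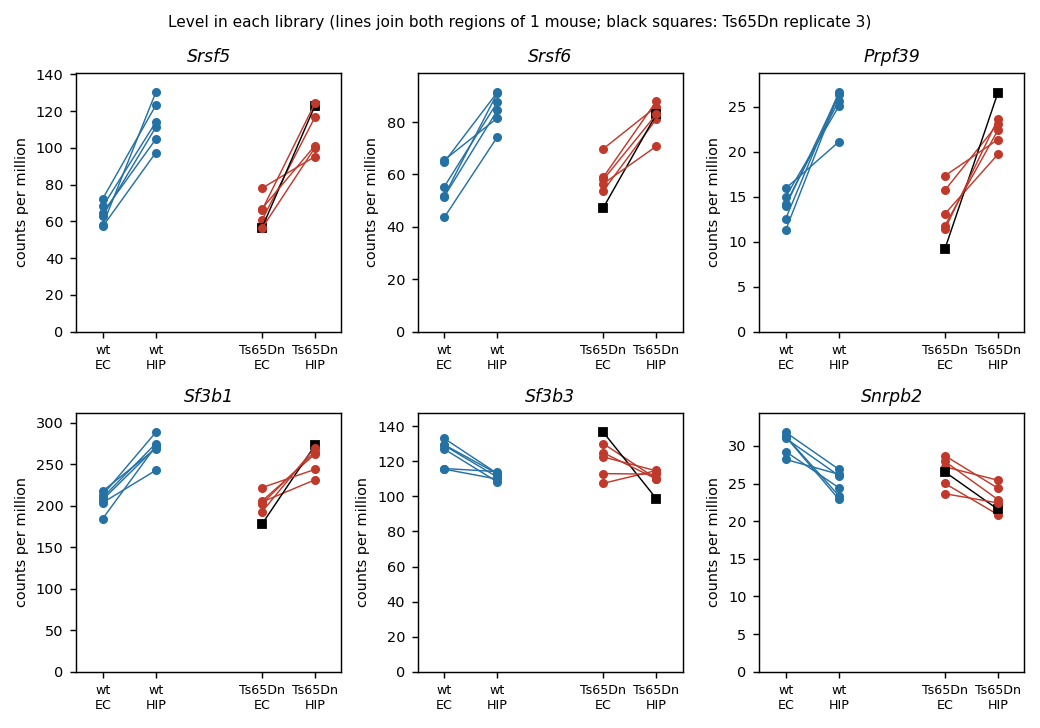
Levels in CPM (vertical axis, from 0) of 6 genes in the EC and the HIP of wt mice (blue) and Ts65Dn mice (red), with a line for each mouse and black squares for Ts65Dn replicate 3. Srsf5, Srsf6, Prpf39 and Sf3b1 are higher in the HIP of all 6 wt mice and Sf3b3 and Snrpb2 are lower in it.

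Of the 13 PRPF genes, 7 were higher in the HIP of wt mice. Prpf39 (chromosome 12, 65036333 to 65063386, plus strand), which associates with the U1 snRNP, showed the largest difference of the 65 genes, with 11.3, 14.1 and 15.9 CPM in the EC of wt mice and 21.1, 26.03 and 26.6 CPM in their HIP. The groups were apart, and the log2 fold change was 0.87 (SE 0.092, adjusted p = 1.69e-05). Prpf38b, the paralog of the B-complex factor Prpf38a, had 22.1, 25.9 and 28.8 CPM and 32.6, 37.6 and 41.1 CPM, and a log2 fold change of 0.54 (SE 0.052, adjusted p = 8.64e-06). Prpf4b, a kinase of the tri-snRNP, had 54.4, 63.9 and 68.9 CPM and 79.7, 83.3 and 87.6 CPM, and differed by 0.41 (SE 0.048, adjusted p = 3.15e-05). None of these ranges overlapped. Prpf40b, Prpf3 and Prpf38a were also called, with log2 fold changes of 0.38, 0.25 and 0.13.

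Of the PRPF genes, 2 were lower in the HIP. Prpf8 had 304, 323 and 328 CPM in the EC of wt mice and 260, 267 and 291 CPM in the HIP, so that every HIP library was below every EC library, with a log2 fold change of -0.23 (SE 0.032, adjusted p = 0.000141). Prpf19, the ubiquitin ligase that activates the spliceosome, changed by -0.13 (SE 0.03, adjusted p = 0.00412). Prpf18, Prpf6, Prpf31 and Prpf4 were not called, and their log2 fold changes were -0.069, 0.0011, 0.018 and 0.077.

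In wt mice the largest subunit of SF3B differed in sign from its partners. Sf3b1, which clamps the branch point (chromosome 1, 54985169 to 55027481, minus strand), had 185, 209 and 218 CPM in the EC and 243, 271 and 289 CPM in the HIP of wt mice, with a log2 fold change of 0.38 (SE 0.042, adjusted p = 2.08e-05). Sf3b3, the scaffold of the same complex (chromosome 8, 110810239 to 110846787, minus strand), had 116, 128 and 133 CPM and 108, 112 and 114 CPM and differed by -0.17 (SE 0.039, adjusted p = 0.00356). The ranges were separate for both. Sf3b5, Sf3a1 and Sf3b6 were also lower in the HIP, with log2 fold changes of -0.18, -0.16 and -0.14. The other 4 SF3 genes were not called, with estimates between -0.13 and -0.0045. In Ts65Dn mice Sf3b1 differed by 0.36 (adjusted p = 0.0014), but Sf3b3, at -0.15 (adjusted p = 0.0843), was not called. Without Ts65Dn replicate 3 these values were 0.30 (adjusted p = 0.00216) and -0.091 (adjusted p = 0.222). Of the SF3 genes only Sf3a1 was then called lower (-0.14, adjusted p = 0.0229).

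Of the 12 Snrp genes, 3 were lower in the HIP, 1 was higher and 8 were not called. Snrpb2, the U2 snRNP protein U2B″, had 28.2, 31.1 and 31.8 CPM in the EC of wt mice and 22.9, 25.3 and 26.9 CPM in the HIP, without overlap, and a log2 fold change of -0.29 (SE 0.051, adjusted p = 0.000638). Snrpn changed by -0.15 (SE 0.036, adjusted p = 0.00456) and Snrpd3, a protein of the Sm ring, by -0.14 (SE 0.034, adjusted p = 0.00425). Snrpa1, the partner of Snrpb2 in the U2 snRNP, was higher by 0.16 (SE 0.063, adjusted p = 0.0461), but in 5 of 6 mice.

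The hnRNPs divided into those that were higher in the HIP and those that were not called, and none was called lower, although 6 were with GC content and length removed. The largest differences were those of Hnrnpa2b1, an RNA transport and splicing factor, and of Hnrnpdl, with log2 fold changes of 0.41 (SE 0.042, adjusted p = 1.39e-05) and 0.40 (SE 0.046, adjusted p = 3.09e-05). Hnrnpa2b1 ranged from 343 to 403 CPM in the EC and from 483 to 535 CPM in the HIP. Hnrnph1, Hnrnph3, Hnrnpm, Hnrnpa1, Hnrnpr, Hnrnpu, Hnrnpa3, Hnrnpl and Hnrnpul2 followed, with estimates falling from 0.38 to 0.097. For the abundant Hnrnpk and Hnrnpc the log2 fold changes were 0.021 and 0.021. With GC content and length removed they were -0.103 and -0.102 (adjusted p = 0.0106 and 0.0381), and both were called lower.

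Counted by mouse, 26 of the 65 genes (40%) were higher in the HIP in all 6 wt mice, beside 28.6% of all genes, and 10 (15.4%) were lower in all 6, beside 27.1%. In Ts65Dn mice 31 of the 65 (47.7%) were called, beside 52.3% of the 17314 genes tested, with 24 higher and 7 lower, where 26.6% and 25.7% of all genes were called higher and lower. With GC content and length removed this split was 17 and 15, where 22.7% of all genes were called higher and 30.6% lower and their median was -0.047. Of the genes called, 30 were called in both genotypes and all 30 had the same sign, which is 76.9% of the 39 in wt mice and 96.8% of the 31 in Ts65Dn mice. The overlap over all genes, of which 61.3% and 52.3% were called in wt and Ts65Dn mice, was not computed. Whether this overlap is particular to the 65 genes was therefore not tested. Without Ts65Dn replicate 3 the number in Ts65Dn mice was 26 (23 higher and 3 lower), beside 47.9% of all genes. The 3 lower genes were Snrpb2, Sf3a1 and Prpf19. By family, 9 SR genes, 9 hnRNPs, 5 PRPF genes and Sf3b1 were higher in the HIP of the 6 Ts65Dn mice.

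**Figure D2:**
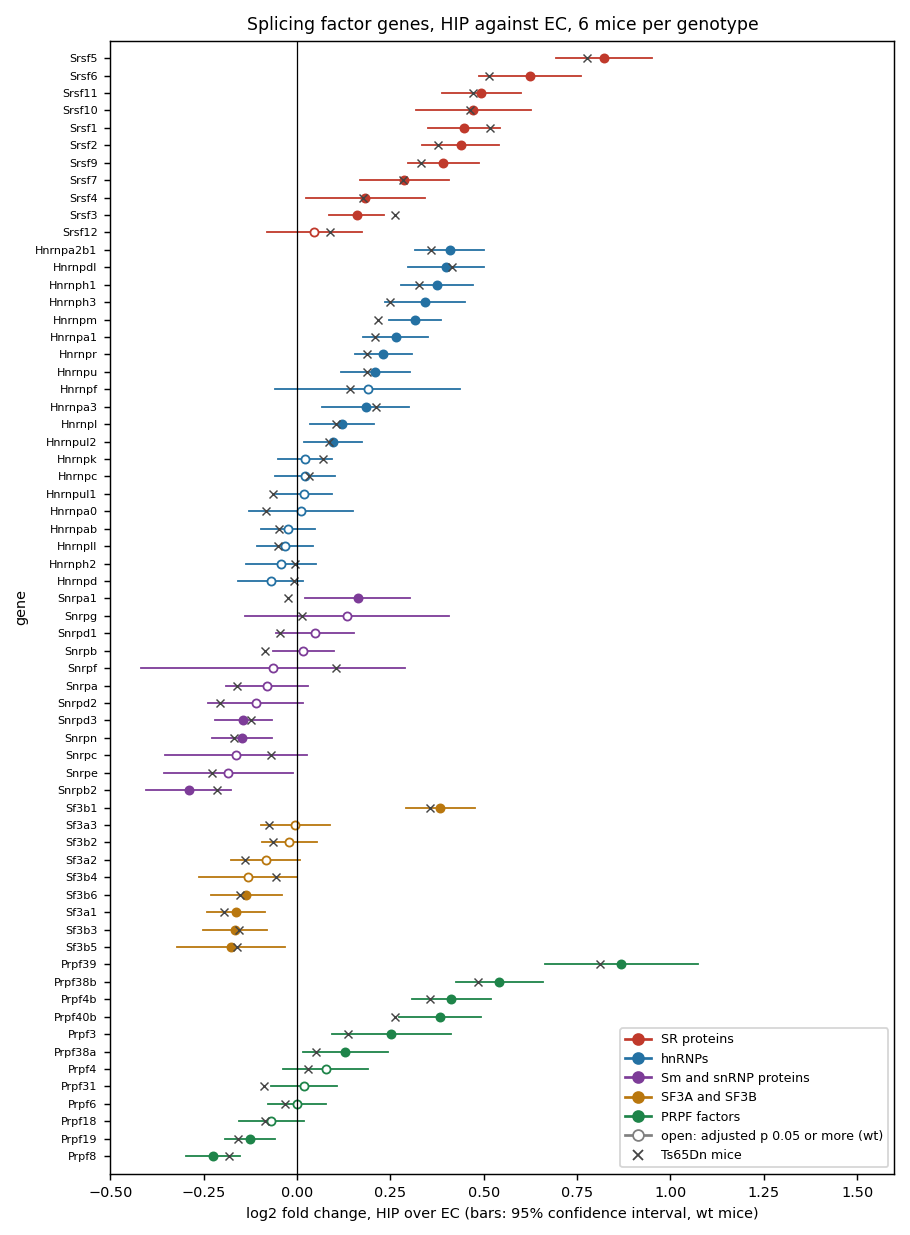
Log2 fold change of HIP over EC (horizontal axis) for 64 of the 65 genes, by family, with 95% confidence intervals for wt mice and crosses for the estimate in Ts65Dn mice. Filled points are genes with an adjusted p under 0.05 in wt mice. Without a correction for GC content the SR genes lie to the right of 0, and 8 of the 9 SF3 genes to the left.

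The split into higher and lower depended on how transcript composition was treated. In wt mice the log2 fold change of HIP over EC had a Spearman correlation with the GC content of the transcripts of -0.34 over the 65 genes and of -0.12 over all genes, and with exon length of 0.30 and 0.10 (a description over genes, which are not replicates). With both trends removed, which gave the even split in wt mice, 8 of the 11 SR genes were still called higher and none lower, the hnRNPs divided into 6 and 6, the PRPF genes into 5 and 3, and the Snrp genes into 0 and 6. Sf3b1 remained called higher and 5 other SF3 genes were called lower.

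The summed RNA of markers of several cell types differed between the regions as well, and cells were not counted. The summed level of 5 oligodendrocyte markers, all of them found, was 6316 to 8643 CPM in the HIP of wt mice and 1261 to 2536 CPM in the EC, and that of 6 neuronal markers 5997 to 6919 CPM in the HIP and 8154 to 9361 CPM in the EC. Astrocyte markers (5 of 5) ranged from 1624 to 1900 CPM in the HIP and from 1346 to 1739 CPM in the EC. Choroid plexus markers (6 of 6) ranged from 93.3 to 4914 CPM in the HIP and from 12.2 to 51.3 CPM in the EC. A group of 6 nuclear-retained RNAs stood at 1032 to 1379 CPM in the HIP and at 599 to 796 CPM in the EC. Microglial markers ranged from 223 to 261 CPM and from 257 to 342 CPM, endothelial markers from 162 to 189 CPM and from 212 to 261 CPM, and striatal markers from 63.6 to 82.1 CPM and from 172 to 200 CPM, in the HIP and the EC respectively. Erythrocyte genes ranged from 101 to 153 CPM in the HIP and from 139 to 545 CPM in the EC. No gene of these lists was at 0 in all libraries of a group. The part of these differences in the results for the splicing factors was not tested.

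Between Ts65Dn and wt mice few of the genes differed. In the HIP 1 of the 65 (1.54%) was called, Prpf40b, beside 1.04% of the 17355 genes tested. In the EC 2 of the 65 (3.08%) were called, Prpf40b and Hnrnpul1, beside 2.5% of 17049. All 3 calls were for higher levels in Ts65Dn mice. Shares of this size are near those of all genes. Every 95% confidence interval of the 65 genes, in both regions, lay within a change of 1.5-fold in either direction. Their median standard error on the log2 scale was 0.056 for the HIP and 0.066 for the EC. These intervals come from the fits with Ts65Dn replicate 3, and those without it were not examined in this way. Without that mouse Prpf40b had a log2 fold change of 0.43 (SE 0.074) in the EC.

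Prpf40b (chromosome 15, 99295087 to 99317018, plus strand), a factor that associates with the U1 snRNP, had 32.8, 35.5 and 37.8 CPM as lowest, median and highest level in the HIP of wt mice and 37.7, 43.8 and 45.5 CPM in that of Ts65Dn mice. Only the library of Ts65Dn replicate 3, the lowest of its group, fell within the wt range. The log2 fold change was 0.26 (SE 0.053, adjusted p = 0.0311), a rise of 1.201 times. Without Ts65Dn replicate 3 it was 0.30 with an adjusted p of 0.00416, and among the 12 fits without 1 mouse only this one and the one without Ts65Dn replicate 2 kept the call (adjusted p between 0.00416 and 0.0795). In the EC the levels were 25.2, 26.7 and 29.3 CPM in wt mice and 30.6, 34.97 and 43.7 CPM in Ts65Dn mice. These groups did not overlap, and the log2 fold change was 0.38 (SE 0.079, adjusted p = 0.0234), or 0.43 without Ts65Dn replicate 3. Of the 12 fits that omitted a mouse, 9 kept the call (adjusted p from 0.00813 to 0.0606) and the call was lost without wt replicate 1, wt replicate 3 or Ts65Dn replicate 1.

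Hnrnpul1 (chromosome 7, 25721165 to 25754757, minus strand), an hnRNP U-like protein with a part in DNA repair, showed 80.6, 85.6 and 87.9 CPM in the EC of wt mice and 93.6, 96.7 and 102 CPM in that of Ts65Dn mice, without overlap. The log2 fold change was 0.18 (SE 0.039, adjusted p = 0.0278). When each mouse was omitted in turn the call remained in 4 of 12 fits (adjusted p from 0.0258 to 0.0664), among them the one without Ts65Dn replicate 3 (0.17, adjusted p = 0.0373). In the HIP its levels were 82.3, 87.4 and 88.6 CPM and 88.96, 93.7 and 97.7 CPM. These were also separate, but the log2 fold change of 0.11 (SE 0.035, adjusted p = 0.172) was not called. In total the groups did not overlap for 3 of the 65 genes in the HIP (Hnrnpul1, Srsf7 and Prpf38a) and for 2 in the EC (Prpf40b and Hnrnpul1), beside 1.67% and 2.46% of all genes. In a comparison chosen after seeing the data, without Ts65Dn replicate 3, these counts were 5 (with Prpf40b and Sf3b5 added) and 2, beside 3.54% and 4.08% of all genes.

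Other genes with the smallest p values leaned to lower levels in Ts65Dn mice, and none of these passed the threshold. Srsf7, an SR protein that links splicing with mRNA export (chromosome 17, 80200080 to 80207307, minus strand), had 82.9, 87.4 and 97.3 CPM in the HIP of wt mice and 73.5, 77.6 and 81.4 CPM in that of Ts65Dn mice, with a log2 fold change of -0.19 (SE 0.044, adjusted p = 0.0553). The fit without Ts65Dn replicate 3 (adjusted p = 0.0369) was the only one of the 12 without 1 mouse that called it, and the highest adjusted p among them was 0.138. Prpf38a, a B-complex factor, had 23.5, 23.9 and 26.6 CPM and 18.7, 20.1 and 22.8 CPM and a log2 fold change of -0.25 (SE 0.057, adjusted p = 0.0558). It was called in 1 of the 12 fits without 1 mouse (adjusted p from 0.0483, without Ts65Dn replicate 2, to 0.136), and not in the one without Ts65Dn replicate 3 (adjusted p = 0.0682). The groups of both genes were separate in the HIP.

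Hnrnpd, or AUF1, which also controls mRNA decay, had log2 fold changes of -0.14 (SE 0.041, adjusted p = 0.137) in the HIP and -0.21 (SE 0.055, adjusted p = 0.0598) in the EC. In the EC its levels were 151, 174 and 193 CPM in wt mice and 140, 153 and 157 CPM in Ts65Dn mice, and the groups overlapped through the lowest wt library. The EC difference was called in 1 of the 12 fits without 1 mouse (adjusted p from 0.0258, without wt replicate 2, to 0.134). Srsf3, the smallest SR protein, had -0.19 (SE 0.061, adjusted p = 0.171) in the HIP and -0.29 (SE 0.094, adjusted p = 0.117) in the EC, with overlapping groups in both. Srsf4 was the SR gene with the highest estimate in the HIP, 0.24 (SE 0.077, adjusted p = 0.1598). Its levels were 10.5, 11.6 and 12.6 CPM in wt mice and 12.4, 13.2 and 15.9 CPM in Ts65Dn mice, which overlapped. Snrpb2 and Hnrnpk, a poly(C)-binding hnRNP, had log2 fold changes of -0.21 (SE 0.06, adjusted p = 0.0755) and -0.14 (SE 0.047, adjusted p = 0.114) in the EC. The EC levels of Snrpb2 were 28.2, 31.1 and 31.8 CPM and 23.7, 26.9 and 28.7 CPM, and those of Hnrnpk 281, 290 and 320 CPM and 257, 269 and 282 CPM, with overlap in each case. Without Ts65Dn replicate 3 the log2 fold changes were -0.13 for Hnrnpd, -0.18 for Srsf3 and 0.21 for Srsf4 in the HIP, and in the EC -0.19 for Hnrnpd, -0.23 for Srsf3, -0.21 for Snrpb2 and -0.13 for Hnrnpk, with adjusted p values of 0.0842 or more.

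**Figure D3:**
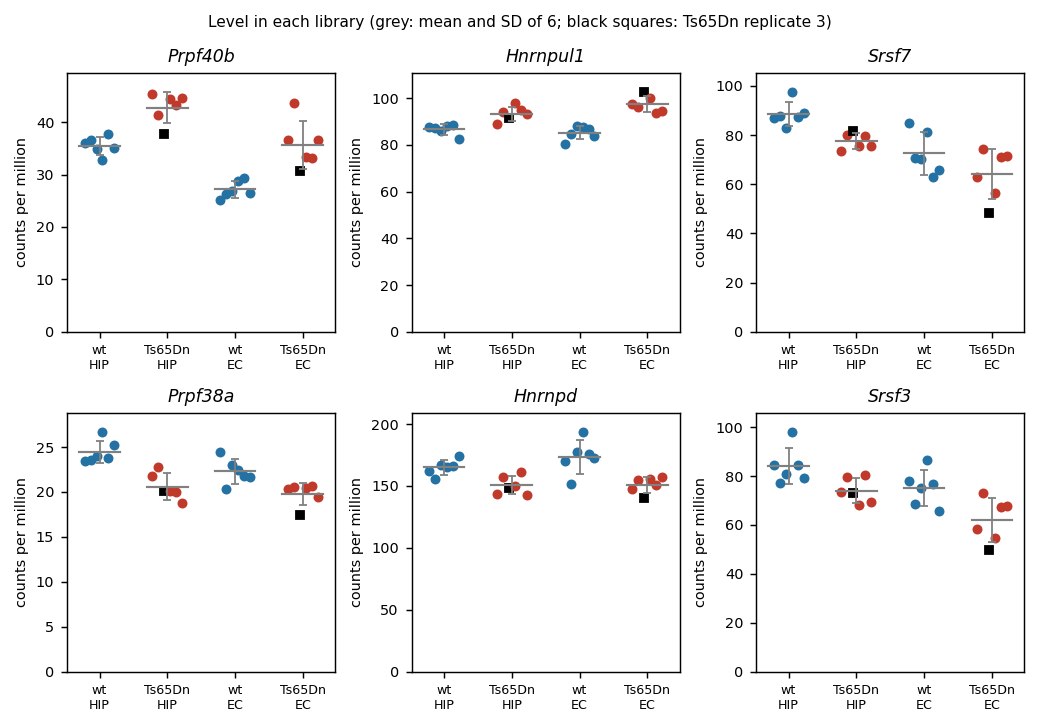
Levels in CPM (vertical axis, from 0) of 6 genes in each library of the 4 groups, with grey bars for the mean and the SD of 6 libraries and black squares for Ts65Dn replicate 3. Prpf40b is higher in Ts65Dn mice in both regions, with the black square lowest of its group in each, and the HIP levels of Srsf7 in the Ts65Dn mice lie below those of all wt mice.

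Taking the genes as families, the estimates in the HIP were mostly small and negative. The median log2 fold change of Ts65Dn over wt was -0.052 over the 65 genes, of which 47 were negative, against 0.0047 over all genes tested. It was -0.057 for the 11 SR genes, -0.050 for the 20 hnRNPs, -0.061 for the 12 Snrp genes, -0.055 for the 13 PRPF genes and 0.0018 for the 9 SF3 genes. An unadjusted p under 0.05 was reached by 13 of the 65 (20%), beside 14.8% of all genes, and by 10 (15.4%) with a lower level in Ts65Dn mice, beside 7.59% of all genes. Of these 10, 5 were SR genes, namely Srsf7, Srsf3, Srsf10, Srsf12 and Srsf1. With GC content and length removed the 10 became 6, of which Srsf7 and Srsf12 were SR genes, beside 5.3% of all genes. In the EC the median was -0.013, or 0.0097 with GC content and length removed, and 35 of the 65 were negative. There 11 of the 65 (16.9%) had an unadjusted p under 0.05, beside 19% of all genes, and 6 (9.23%) with a lower level, beside 9.97%. With Ts65Dn replicate 3 left out, also chosen after seeing the data, the counts by unadjusted p were 14 in the HIP (17% of all genes), 9 of them lower (8.41%), and 9 in the EC (19%), 5 of them lower (9.94%). The medians without that mouse were -0.058 in the HIP and -0.012 in the EC, 2 of the 65 genes were called in the HIP (Prpf40b and Srsf7) beside 1.82% of all genes, and 2 in the EC (Prpf40b and Hnrnpul1) beside 2.79%. The summed level of the 65 genes was 6364, 6517 and 6847 CPM (lowest, median and highest) in the HIP of wt mice and 6175, 6336 and 6616 CPM in that of Ts65Dn mice, and 5704, 6066 and 6365 CPM in the EC of wt mice and 5807, 5945 and 6061 CPM in that of Ts65Dn mice. The groups overlapped in both regions.

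**Figure D4:**
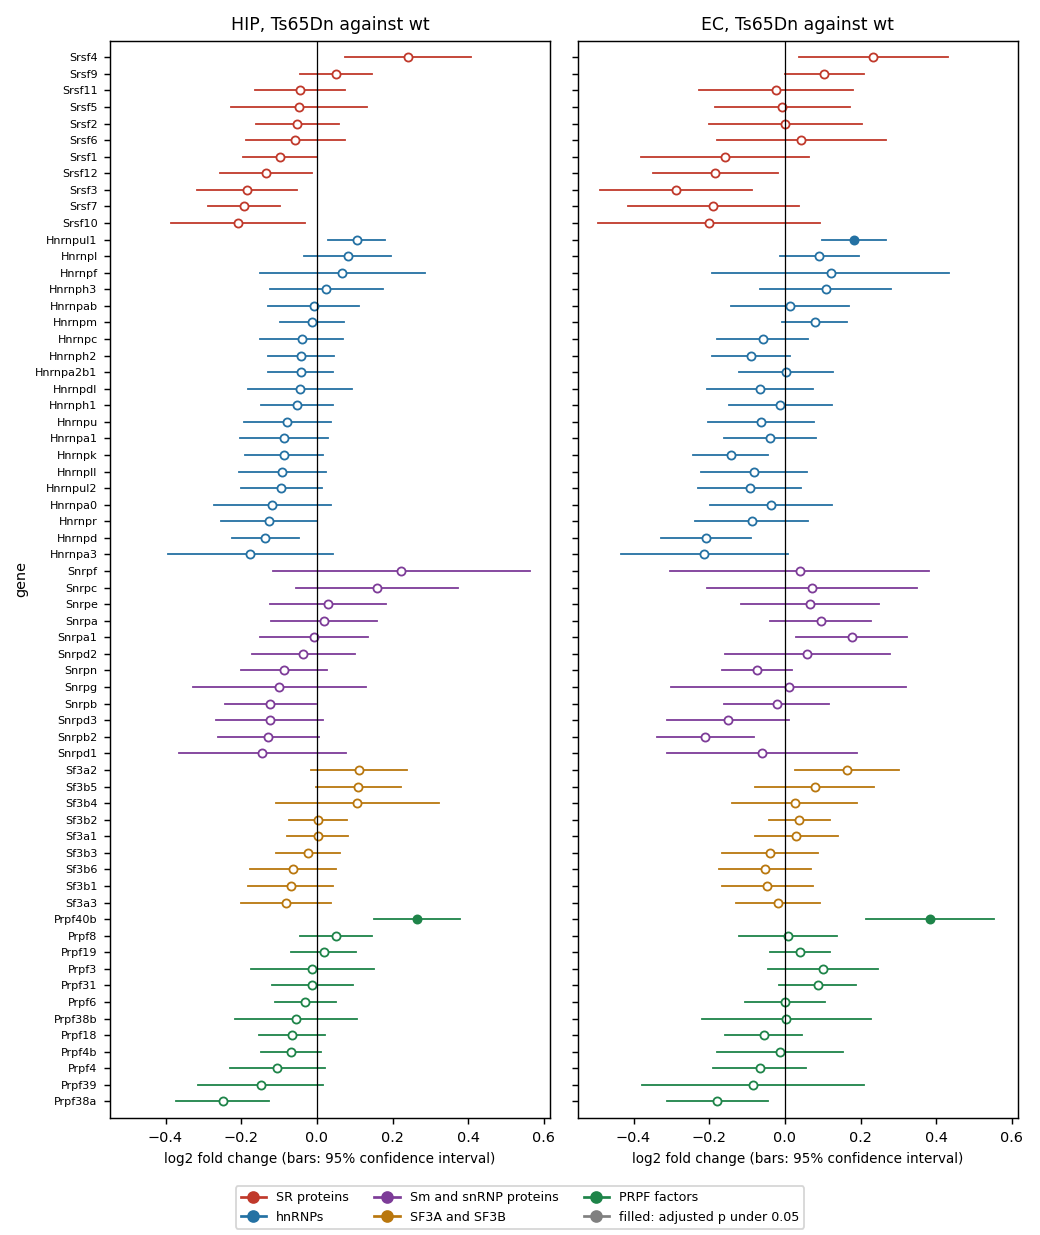
Log2 fold change of Ts65Dn over wt (horizontal axis) with 95% confidence intervals for 64 of the 65 genes, in the HIP (left) and the EC (right), by family. Filled points are genes with an adjusted p under 0.05, which are Prpf40b in both regions and Hnrnpul1 in the EC.

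The genotype estimates followed the GC content of the transcripts. Over the 65 genes the Spearman correlation between GC content and the log2 fold change of Ts65Dn over wt was 0.57 for the HIP and 0.63 for the EC, beside 0.40 and 0.44 over all genes. Prpf40b has a GC content of 58.2% and Hnrnpul1 one of 49.9%, whereas Srsf7, Srsf3, Prpf38a and Snrpb2 lie between 40.01% and 42.6%, and the median of the 65 was 46.2% beside 50.3% for the protein-coding genes tested. With trends in GC content and length removed, 0 of the 65 genes were called by edgeR's quasi-likelihood test in either region, where over all genes 0.403% were called for the HIP and 0.786% for the EC. An unadjusted p under 0.05 was then reached by 9 of the 65 for the HIP and by 10 for the EC. Over all genes it was reached by 1728 of 17355 for the HIP and by 2251 of 17049 for the EC. Prpf40b then had log2 fold changes of 0.18 in the HIP (adjusted p = 0.229) and 0.28 in the EC (adjusted p = 0.134), and Hnrnpul1 one of 0.17 in the EC (adjusted p = 0.0753). The median of the 65 in the HIP was then -0.020. Mitochondrially encoded transcripts (13 of 13 genes found) summed to 29972 to 36661 CPM in the HIP of wt mice and to 27448 to 36133 CPM in that of Ts65Dn mice, and to 37035 to 60482 CPM and 31882 to 42991 CPM in the EC. The nuclear-retained RNAs were highest in the HIP library of Ts65Dn replicate 3, at 1968 CPM, where the other 11 HIP libraries did not exceed 1379 CPM. The part of these measures in the genotype results was not tested.

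**Figure D5:**
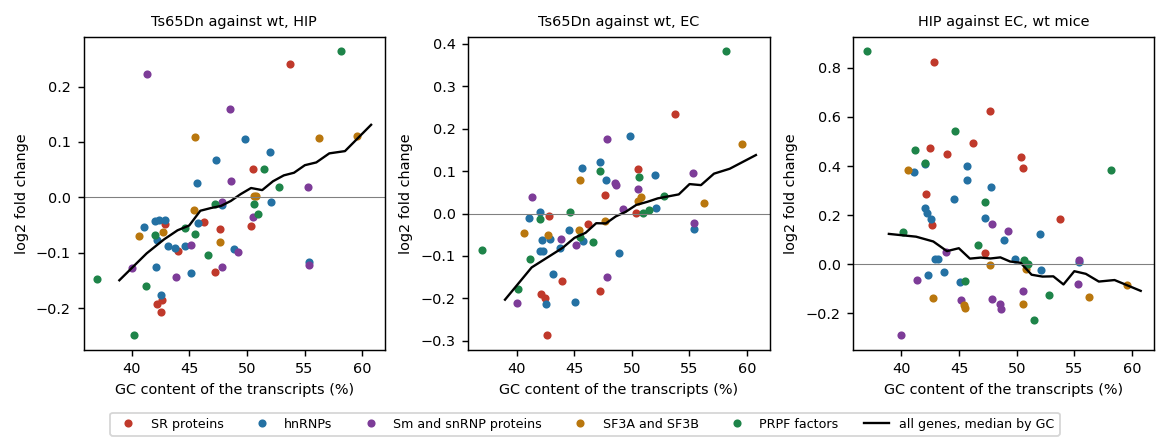
Log2 fold change (vertical axis) against the GC content of the transcripts in percent (horizontal axis) for the 65 genes, coloured by family, in 3 comparisons. The black line joins the medians of all genes tested in 20 bins of GC content, and it rises with GC content in both genotype comparisons and falls in the comparison of HIP with EC.

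Whether the genotype effect differed between the regions was tested with an interaction term over the 24 libraries. None of the 65 genes was called by edgeR's quasi-likelihood test, and 0% of the 18109 genes tested were. An unadjusted p under 0.05 was reached by 0 of the 65 genes and by 4.1% of all genes, and DESeq2 called 0 of the 65. The smallest unadjusted p values belonged to Snrpa1, Hnrnpm and Prpf31. Their interaction estimates were -0.18 (95% confidence interval -0.37 to 0.0061), -0.098 (-0.21 to 0.011) and -0.11 (-0.23 to 0.016), each with an adjusted p above 0.99. Snrpa1 had EC levels of 12.1 to 13.3 CPM in wt mice and 12.9 to 15.8 CPM in Ts65Dn mice, which overlapped, and HIP levels of 12.03 to 15.5 and 13.2 to 15.00 CPM. Without Ts65Dn replicate 3 the estimates were -0.15 for Snrpa1, -0.094 for Hnrnpm and -0.095 for Prpf31 (adjusted p = 0.794, 0.791 and 0.801). For Prpf40b the estimate was -0.12 (-0.30 to 0.061) and for Srsf5 -0.043 (-0.30 to 0.21).

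Other genes of the splicing pathway were read from 6 lists without the 65 genes. Their counts for the regions in wt mice stand beside the 31% and 30.3% of all genes called higher and lower as fitted, and the 25.8% and 36.1% with GC content and length removed. Of 27 SR-related proteins and coactivators tested, 20 were higher in the HIP and 4 lower, or 15 and 5 with that removal. Pnisr, an SR-rich nuclear protein, had 32.9, 39.01 and 55.6 CPM in the EC and 78.9, 93.3 and 97.2 CPM in the HIP, without overlap, and a log2 fold change of 1.13 (SE 0.083). Srek1, Scaf11, Sap18, Pnn and Acin1 were higher as well, by 0.66, 0.35, 0.42, 0.35 and 0.50 on the log2 scale.

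Of 12 kinases that phosphorylate SR proteins, 7 were higher in the HIP of wt mice and 3 lower, or 5 and 4 with GC content and length removed. The CDC-like kinases Clk1, Clk4, Clk3 and Clk2 were higher, by 1.17, 0.57, 0.35 and 0.22, whereas the cytoplasmic SR kinase Srpk2 was lower (-0.37), as was Dyrk1b (-0.27). Clk1 had 15.98 to 20.8 CPM in the EC and 28.96 to 45.2 CPM in the HIP. Among 25 U1, U2 and minor spliceosome proteins 13 were higher and 5 lower, or 10 and 5 with GC content and length removed, led by the minor spliceosome proteins Rnpc3 (1.18) and Snrnp48 (0.82), the U1 proteins Luc7l3 (0.68), Luc7l2 (0.39) and Snrnp70 (0.44) and the helicase Dhx15 (0.32). The 47 proteins of the tri-snRNP, LSm ring and PRP19 complex divided into 7 higher and 10 lower, or 7 and 13 with that removal, with Cdc40 (1.003), Lsm8 (0.81) and Rbm22 (0.31) higher and Eftud2 (-0.24), Lsm6 (-0.39) and Snu13 (-0.47) lower.

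Of 48 brain-enriched or tissue-specific regulators 25 were higher in the HIP of wt mice and 9 lower, or 23 and 14 with GC content and length removed. Raver2 (1.504), Tia1 (1.17), Tial1 (0.61), Qk (0.50), a regulator that oligodendrocytes and astrocytes also express, and Ptbp3 (0.43) were higher, and the neuronal Elavl4 lower (-0.77). In the exon junction complex and nonsense-mediated decay list 7 of 15 were higher and 3 lower, or 6 and 5 with that removal, with Smg1 (0.45), Upf3b (0.45), Smg5 (0.29) and Upf2 (0.26) among the former and Smg9 (-0.42) among the latter.

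By genotype, 7 of the 10 calls in these lists were for Dyrk1a, Son, Scaf4 and Scaf8, which have an additional copy. Genes called in both regions are counted in each. The share of genes with an additional copy among all genotype calls was not computed, and the lists were chosen with earlier results known. In the HIP 1 of 12 kinases was called, Dyrk1a on the triplicated part of chromosome 16, with 90.3 to 94.2 CPM in wt mice and 89.6 to 144 CPM in Ts65Dn mice. The log2 fold change was 0.45 (adjusted p = 0.0292), and 0.53 (adjusted p = 1.19e-05) without Ts65Dn replicate 3, whose library was the low one. In the EC it was 0.38 with and 0.46 without that mouse. Of the 27 SR-related genes, Son and Scaf4 on chromosome 16 and Scaf8 on chromosome 17, all triplicated, were higher in the HIP by 0.33, 0.47 and 0.42, and without Ts65Dn replicate 3 by 0.39, 0.54 and 0.51. In the EC Scaf4 and Scaf8 were higher by 0.48 and 0.39, and without that mouse by 0.54 and 0.47. Of the genes with the usual copy number, Ppig, an SR-rich cyclophilin, had 78.6 to 87.9 CPM in the HIP of wt mice and 65.3 to 74.02 CPM in that of Ts65Dn mice, with a log2 fold change of -0.25 (adjusted p = 0.0218).

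Upf3b, of the decay machinery, was lower in the HIP of Ts65Dn mice, with a log2 fold change of -0.30 (adjusted p = 0.0367), a call that was kept in 1 of 12 fits without 1 mouse, the one without Ts65Dn replicate 3 (adjusted p = 0.0303). Txnl4a, a U5 snRNP protein, was the single gene called in the EC among the 47 of the tri-snRNP list, with 23.4 to 25.6 CPM in wt mice, 28.2 to 33.2 CPM in Ts65Dn mice and a log2 fold change of 0.26 (adjusted p = 0.0236). With GC content and length removed, Ppig, Upf3b and Txnl4a were no longer called, with log2 fold changes of -0.13, -0.22 and 0.22 (adjusted p = 0.226, 0.125 and 0.0859). Without Ts65Dn replicate 3 but without that removal, Ppig and Txnl4a had log2 fold changes of -0.25 and 0.28, and both were called. After removal Son, Scaf4 and Scaf8 in the HIP had log2 fold changes of 0.36, 0.42 and 0.42, near those as fitted, and were just past the threshold (adjusted p = 0.0508, 0.0627 and 0.0866). Of the 12 fits without 1 mouse, the HIP calls were kept in 2 for Dyrk1a, 8 for Son, 4 for Scaf4, 1 for Scaf8 and 7 for Ppig, and the EC calls in 1 for Dyrk1a, 12 for Scaf4, 3 for Scaf8 and 8 for Txnl4a. In the list of brain regulators no gene was called by edgeR's quasi-likelihood test in either region. An unadjusted p under 0.05 was reached by 15 of the 48 tested for the HIP and by 13 of the 47 tested for the EC, and DESeq2 called 6 and 5. Over all genes 14.8% reached that p for the HIP and 19% for the EC, and DESeq2 called 3.64% and 6.48%. In the list of U1, U2 and minor spliceosome proteins, likewise without a call, 3 of 25 genes reached that unadjusted p for the HIP and 4 for the EC, and DESeq2 called 0 and 2. For the HIP and the EC that p was reached by 10 and 6 of 27 SR-related genes and by 3 and 2 of 12 kinases. It was reached by 8 and 6 of 47 tri-snRNP genes and by 2 and 1 of 15 genes of the exon junction and decay list.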

How the data were processed

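RNA of the HIP and EC of 12 mice was sequenced in 24 libraries. The deposited count matrix holds the raw counts per gene that the authors made with HTSeq-count after bcl2fastq 2.17.1.14 and alignment by Hisat2 to GRCm38 (Ensembl 99). The methods name ribosomal depletion followed by polyA RNA, and the labels a stranded poly-T kit. The strand setting of the counting is not given in the sources used here. The deposited tables of comparisons hold fold changes and p-values of DESeq2 and FCROS and were not used. A gene annotation of GENCODE vM21 matched 99.6% of the identifiers.

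Genes were filtered with filterByExpr, scaled by TMM and tested with edgeR 4.0.16 (quasi-likelihood, R 4.3.3), with Benjamini-Hochberg adjustment over all genes tested and a threshold of 0.05. A prior count of 2 was used for log2 CPM and not set in the tests. Genotypes were compared within each region, regions within each genotype with the mouse as a block, because 1 animal gave both samples (correlation of deviations from the group means 0.25 to 0.46 in wt and 0.20 to 0.46 in Ts65Dn mice), and the interaction over 24 libraries. Alternatives were DESeq2 1.42.0, its size factors in edgeR, other count filters, removal of GC content and length trends, a replicate block, a threshold of 0.1 and fits without 1 mouse. Transcript GC content is a length-weighted mean over annotated transcripts. The genes named in full were those called between genotypes, filled up to 6 per region by the smallest p, the 10 called between regions with the largest fold change, the 3 with the smallest interaction p, the highest and lowest of each family by level, and up to 6 called per related list. Others are named as examples of their family and were chosen after their values were seen. Some results are not reported here. Members, lists and tests were chosen with earlier results of these data known. Standard errors are those of the fitted log2 fold changes, taken from the quasi-likelihood F statistic. In the region and interaction fits, with the mouse as a block, they rest on differences within mice. At 23128589 to 40476492 counted reads per library the 65 genes averaged 72.5 counts or more. Scripts were tested on simulated data.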

Additional observations from a re-analysis of the deposited data

Results flagged for a closer look

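Of 136 groups of 6 libraries examined, over the named genes and the family means, 7 had a library far from the other 5. Chance sets apart about 1 in 20 groups. In the EC of wt replicate 2, Hnrnpa2b1 was lowest at 343.5 CPM, where the other 5 libraries had 381.3 to 402.8 CPM, and Prpf31 was highest at 35.41 CPM, with 31.16 to 32.23 CPM in the others. Prpf39 was lowest in the HIP of wt replicate 1, at 21.11 CPM against 25.06 to 26.62 CPM, and Srsf3 was highest in the HIP of wt replicate 4, at 97.89 CPM against 77.25 to 84.59 CPM. Snrpc was highest in the HIP of Ts65Dn replicate 2, at 7.432 CPM against 5.394 to 6.124 CPM.

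The library pair of Ts65Dn replicate 3, whose triplicated genes stood at the wt level, accounted for the remaining 2. Its EC level of Prpf38a was 17.48 CPM, where the other 5 Ts65Dn mice had 19.5 to 20.63 CPM. The mean log2 level of its SF3A and SF3B genes in the HIP, set against the wt mean, was -0.105, while the other 5 Ts65Dn mice had 0.0317 to 0.0554.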

How the results depend on the processing

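The genotype counts were small and moved with most settings. In the HIP, where 1 of the 65 genes was called, DESeq2 called 4 (Prpf40b, Hnrnpd, Srsf7 and Prpf38a), a threshold of 0.1 gave 3, and 0 were called without the filter on low counts, with GC content and length removed, or with the replicate block. Fits without 1 mouse gave 0 to 2 calls. Over all genes DESeq2 called 3.64%, the fit without the filter 0.391% and the block 0.167%. In the EC, where 2 were called, DESeq2 called 5 (Prpf40b, Hnrnpul1, Hnrnpd, Snrpb2 and Hnrnpk), a threshold of 0.1 gave 4, no filter gave 1, GC content and length removed 0, the replicate block 0, and fits without 1 mouse 0 to 3, where the shares of all genes were 6.48% with DESeq2, 0.815% without the filter and 0.211% with the block. The median log2 fold change of the 65 genes in the HIP was -0.0516. It was -0.01961 with GC content and length removed, and -0.0674 to -0.0304 without 1 mouse. In the EC it was -0.0128, with 0.00970 after that removal and -0.0359 to -0.00219 without 1 mouse. Causes were not tested. The counts of genes whose groups do not overlap or that reach an unadjusted p, without Ts65Dn replicate 3, were added after seeing the data.

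Ts65Dn and wt mice of the same number share only a number. The correlation of their deviations from the group means was between -0.22 and 0.16 for the HIP and between -0.10 and 0.17 for the EC, and 1 of 6 Ts65Dn mice correlated best with the wt mouse of its number in each region.

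The region counts stayed within 1.5 times, at 32 to 41 in wt mice and 25 to 36 in Ts65Dn mice (32 and 31 with no replicate block), and the interaction called 0 of the 65 in each setting. Of 390 alternative values for named genes, 352 kept their side of the threshold, 29 lost and 9 gained a call, and 0 changed sign. All 29 losses fell on the genotype calls of Prpf40b and Hnrnpul1. For the HIP, Prpf40b lost its call in 13 settings and kept it in 5. For the EC, Prpf40b lost its call in 5 settings and kept it in 13, and Hnrnpul1 lost its call in 11 and kept it in 7. The SR and PRPF genes named in full for the regions as the largest fold changes were called throughout.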
